A study of Petunia x hybrida with 32 samples.

Results

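The 6 transcripts described here encode chlorophyll a/b binding proteins of petunia leaves, and they were taken by identifier from the 4767 transcripts with deposited values. Of these, 5 are isoforms of component comp28131_c1 (comp28131_c1_seq1, seq2, seq3, seq5 and seq9), the gene that the study names cab 25, and the sixth is comp25306_c0_seq3. All 6 passed the filter on low values. Leaves of hydroponically grown Petunia hybrida "Mitchell Diploid" were sampled in 5 groups, each with 3 biological replicates for which leaves of 3 plants were pooled: salt-treated leaves after 6 h (STR_06h) and 24 h (STR_24h) in nutrient solution with 150 mM NaCl, and control leaves without added NaCl at 0 h (CTR_00h), 6 h (CTR_06h) and 24 h (CTR_24h). All plants were of 1 genotype, grew under the same light and dark cycle, and gave the most recently expanded leaf. The cDNA of a replicate was indexed with an HPLC-purified primer and with a non-HPLC primer, and the replicate's value is the mean of its libraries. Poly(A) RNA was sequenced and expression was deposited as RPKM, read numbers scaled to transcript length and to the mapped reads of the library, so levels can be compared between transcripts of different length.

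Chlorophyll a/b binding proteins sit in the thylakoid membrane of the chloroplast, where they hold chlorophyll and carotenoid pigments, collect light and pass its energy to the reaction centres of the photosystems. They are encoded by a family of nuclear genes whose transcripts are among the most abundant of green leaves and, in plants in general, follow light and the circadian clock. In salt-stressed plants the antenna is of interest because light collected in excess of what carbon fixation can use favours reactive oxygen species.

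A component is the assembler's grouping of contigs that share sequence, and its isoforms can be splice forms, alleles or close copies of a gene. Reads shared by isoforms are divided among them by the estimator. The level of a single isoform is therefore less certain than a sum over all isoforms of its component. The sum used here covers only isoforms with values, so reads divided with the others can affect it too. The annotation used here describes 4 transcripts of comp25306_c0 as chlorophyll a-b binding proteins, of which 1 has values, and describes 0 of comp28131_c1, so the name cab 25 rests on the study alone. The shares given here are of the 5 isoforms with values, and isoforms without values are not in the sum. Over the 28 libraries the mean was 20461.7 RPKM for this sum and 2835 RPKM for comp25306_c0_seq3. The study reports a much higher mean RPKM for both components. The values here may therefore describe a minor part of each component. How much lies in isoforms without values was not tested.

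Replicate 2 of CTR_06h and replicate 2 of STR_24h are each represented by the HPLC library alone, while the other 13 replicates have both. For replicate 2 of STR_24h a non-HPLC library has values too, but it was left out. The HPLC library gave the lower value for 5 of the 6 transcripts where both exist, and with HPLC libraries alone all 6 were still called lower in STR_24h than in CTR_24h. By the study's account all plants of a treatment were pooled at every hour, so leaves at different hours came from the same plants. The contrasts between hours and the change of the salt effect were fitted as if they did not. Where a block for the replicate number changes a call, its value stands beside it. How many reads lie behind an RPKM value is not known, so precision here is that of the spread between 3 replicates.

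In control leaves at 0 h the 5 isoforms of comp28131_c1 summed to 14845, 15611 and 14802 RPKM in the 3 replicates, 10.3% of the summed RPKM of all transcripts with values. The sum was highest in salt-treated leaves at 6 h, 29599 ± 7301 RPKM, followed by 25799.6 ± 3212 RPKM in CTR_24h, 20483 ± 7151 RPKM in CTR_06h, 15086 ± 455 RPKM in CTR_00h and 8720.3 ± 855 RPKM in STR_24h (SD, n = 3 each). Between neighbours in this order, replicates overlapped except between CTR_00h and STR_24h. For comp25306_c0_seq3 the order was CTR_24h, STR_06h, CTR_06h, CTR_00h and STR_24h, and here too STR_24h alone was set apart from its neighbour without overlap.

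Of the isoforms, comp28131_c1_seq9 had the highest mean over the 28 libraries, followed by seq5, seq2 and seq3, and seq1 was the least abundant, with 545 RPKM on average. Between the lowest and the highest replicate, seq9 differed 16.4-fold and seq1 11.6-fold, while seq2 differed 6.30-fold, seq5 4.74-fold, comp25306_c0_seq3 4.10-fold and seq3 3.72-fold. The isoforms did not follow the same order of groups. The isoforms seq1, seq5 and seq9 were highest in STR_06h, whereas seq2, seq3 and comp25306_c0_seq3 were highest in CTR_24h. The lowest group was STR_24h for all but seq5, which was lowest in CTR_00h, with replicates of these 2 groups overlapping. For seq3, too, the replicates of STR_24h overlapped with those of CTR_00h.

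**Figure D1:**
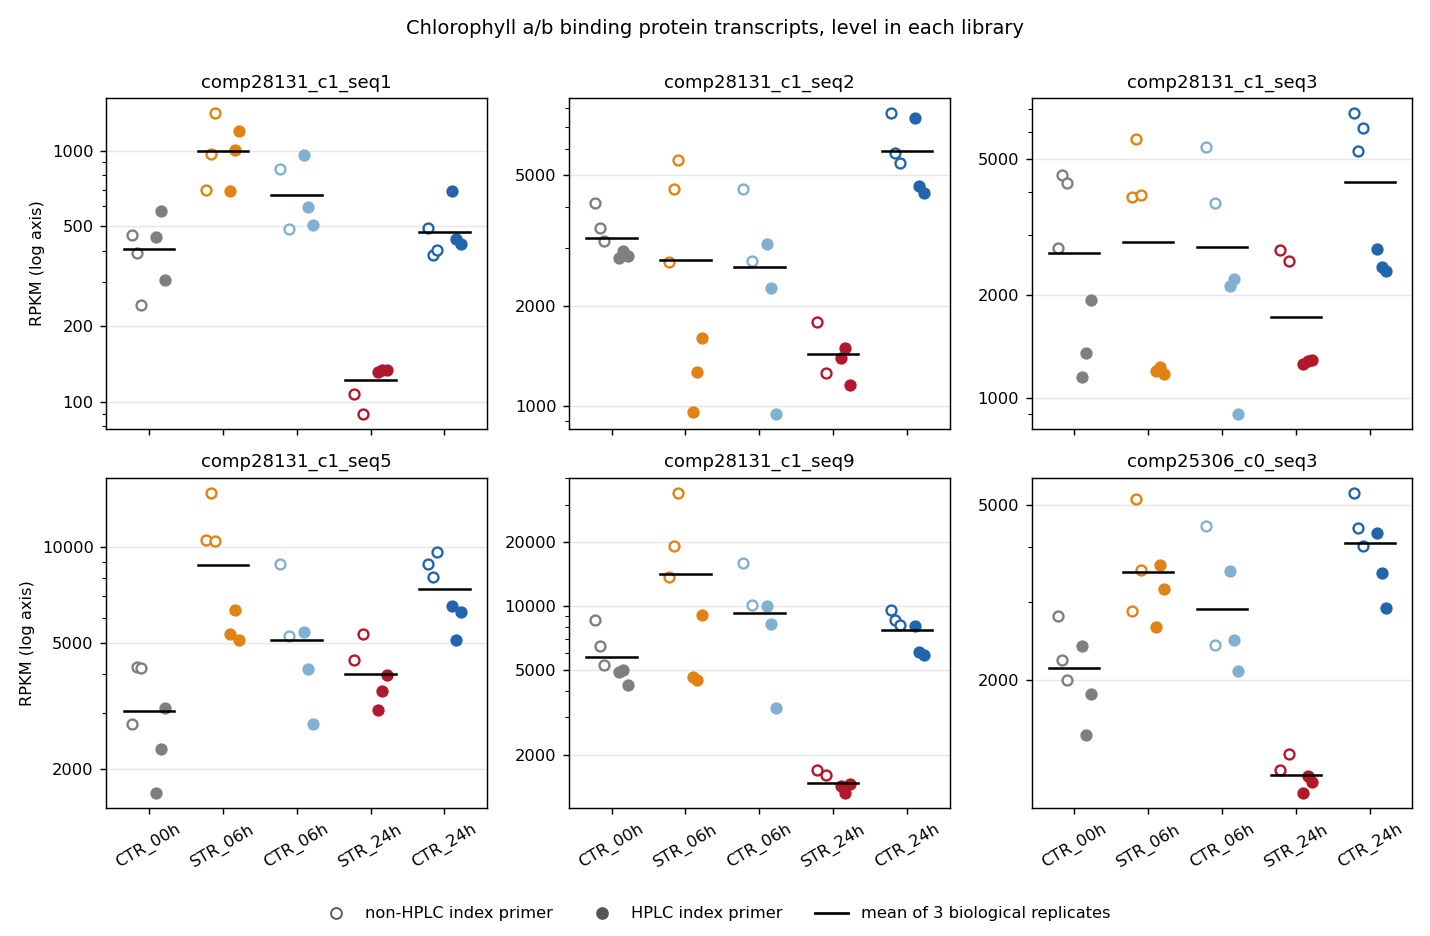
RPKM (log axis) of the 6 chlorophyll a/b binding protein transcripts in each library, by group; open points are non-HPLC libraries, filled points HPLC libraries, and lines the mean of 3 biological replicates. The mean of STR_24h lies below that of CTR_24h in every panel, and for seq3 every non-HPLC library lies above the HPLC library of its replicate, by 1.94-fold or more.

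At 24 h, all 6 transcripts were called lower in salt-treated leaves than in control leaves of the same hour. At an adjusted p of at most 0.05, 22.3% of all tested transcripts were called lower in this comparison and 24.2% higher. The tested transcripts are those with deposited values, a small part of the assembly. Shares of all tested transcripts given here are therefore not shares of the whole transcriptome. At the study's stricter cut-off, which asks for an adjusted p no higher than 0.001 with a change of 1 or more on the log2 scale, 5 of the 6 were called lower, against 7.17% of all tested transcripts. The median log2 fold change of the 6 was -1.83, and that of all tested transcripts was 0.01. In these bulk samples, fewer cells of a type and less RNA per cell cannot be told apart.

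The most abundant isoform, comp28131_c1_seq9, had 1561, 1317 and 1531 RPKM in salt-treated leaves at 24 h, against 8834, 7343 and 6995 RPKM in control leaves. All salt-treated replicates lay far under the lowest control. The difference was 5.24-fold, a log2 fold change of -2.39 (SE 0.30, limma adjusted p = 2.55e-05). In rank among the transcripts with deposited values, which are a part of the assembly, seq9 stood between 13 and 23 in the libraries of STR_24h and between 2 and 5 in those of CTR_24h.

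The isoform comp28131_c1_seq2 had 1588, 1496 and 1203 RPKM in STR_24h, against 7578, 5227 and 4935 RPKM in CTR_24h, a log2 fold change of -2.03 (SE 0.29, limma adjusted p = 7.28e-05). The scarce isoform comp28131_c1_seq1 had 120.1, 134 and 112 RPKM in STR_24h, against 592, 415 and 414 RPKM in CTR_24h, a log2 fold change of -1.93 (SE 0.29, limma adjusted p = 0.000105). In neither did the groups overlap. The 95% confidence intervals overlapped among these isoforms, at -2.65 to -1.41 for seq2, -2.54 to -1.32 for seq1 and -3.03 to -1.75 for seq9.

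The fitted changes of comp28131_c1_seq3 and comp28131_c1_seq5 were smaller. For seq3 the values were 1982, 1278 and 1899 RPKM in STR_24h, against 4751, 3840 and 4244 RPKM in CTR_24h, a log2 fold change of -1.34 (SE 0.26, limma adjusted p = 0.000922). For seq5 they were 3743, 3536 and 4660.3 RPKM in STR_24h, against 7692, 6570.3 and 7968 RPKM in CTR_24h, a log2 fold change of -0.90 (SE 0.26, limma adjusted p = 0.0105). This isoform alone missed the study's cut-off. Of the 5 isoforms seq5 was the most abundant in each replicate of STR_24h, and in CTR_24h it was so in replicate 3 alone.

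The transcript of the other component, comp25306_c0_seq3, had 1176, 1205 and 1263 RPKM in STR_24h, against 4822, 3961 and 3470 RPKM in CTR_24h. It fell 3.33-fold, a log2 fold change of -1.74 (SE 0.25, limma adjusted p = 7.57e-05). Its 3 salt-treated replicates varied little, with an SD of 44.5 RPKM.

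Summed over its isoforms with values, comp28131_c1 had 8994, 7762 and 9405 RPKM in STR_24h, against 29447, 23395 and 24556 RPKM in CTR_24h. The sum was 2.95-fold lower, a log2 fold change of -1.56 (SE 0.27, limma adjusted p = 0.000327), where 24.1% of all tested components were called lower. It made up 5.27% ± 0.71 of the summed RPKM of all transcripts with values in STR_24h and 11.7% ± 0.86 in CTR_24h (SD, n = 3). All 6 transcripts were still called lower at an adjusted p of at most 0.05 with HPLC libraries alone, with non-HPLC libraries alone, with the replicates set to the same median and with the rest of the table set to the same sum. That last scaling moved the median of all tested transcripts by 0.17 on the log2 scale, and under it the log2 fold changes at 24 h ran from -2.11 for seq9 to -0.62 for seq5.

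Lists for other cell types were read beside these values. A list of 4 transcripts for epidermis and cuticle, all of them lipid transfer proteins, summed to 1701 to 2135 RPKM in STR_24h and to 789 to 1413 RPKM in CTR_24h, and 3 of the 4 were called higher, where 24.2% of all tested transcripts were. Most of the sum was comp12235_c0_seq1, with 1313 ± 171 RPKM in STR_24h, which was not called (limma adjusted p = 0.0820). Those called include isoforms seq1 and seq2 of the same component, comp11819_c0. A further lipid-transfer transcript outside this list, comp14278_c0_seq1, went the other way. It had 7.42 ± 0.97 RPKM in STR_24h and 24.2 ± 4.03 RPKM in CTR_24h (log2 fold change -1.58, limma adjusted p = 0.000131). A list of 11 transcripts for dividing cells summed to 6.74 to 10.7 RPKM in STR_24h and to 8.63 to 8.95 RPKM in CTR_24h, with 1 called higher and 0 lower, where 24.2% of all tested transcripts were called higher and 22.3% lower. This list was matched by description and includes isoforms of the same component. It also holds a cyclin-G-associated kinase and a cyclin-D-binding myb-like factor, which need not mark dividing cells, so its sum is a loose measure of them. The list for vascular tissue had 0 transcripts with values. The part of these cells in the lower chlorophyll a/b binding protein transcripts was not tested.

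**Figure D2:**
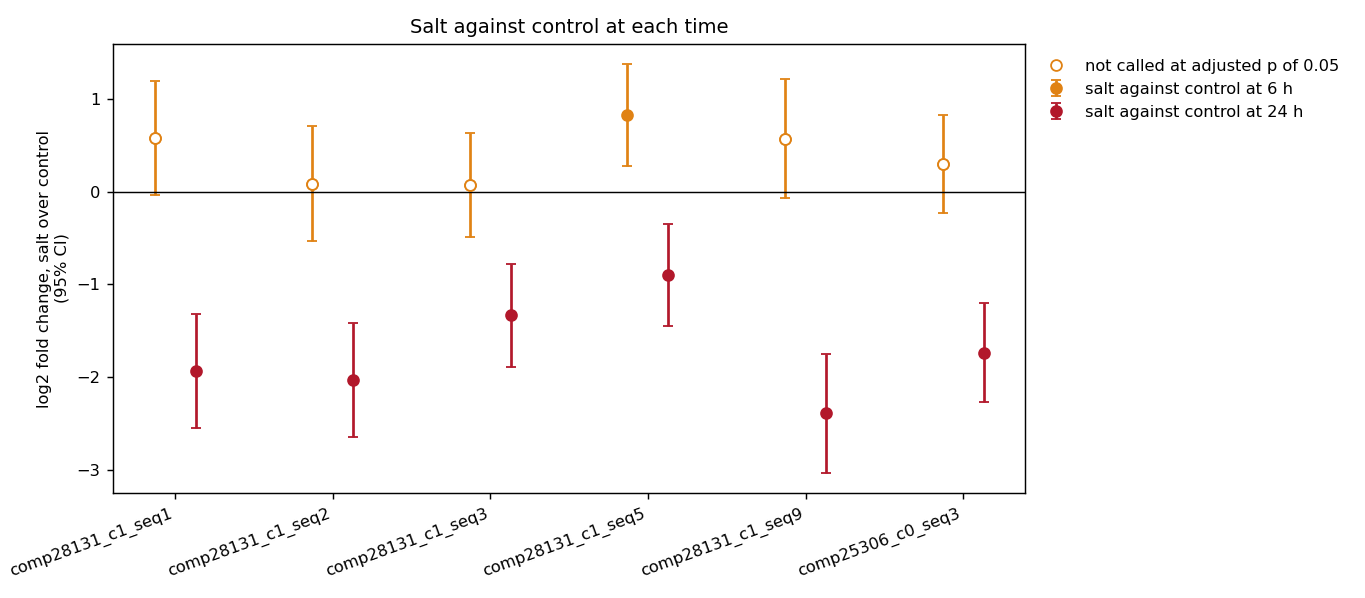
Log2 fold change of salt-treated over control leaves at 6 h and at 24 h for the 6 transcripts, with 95% confidence intervals from the fit of all 5 groups; open points were not called at an adjusted p of 0.05. At 24 h all 6 lie under 0, from -2.39 for seq9 to -0.90 for seq5, while at 6 h seq5 alone was called.

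At 6 h, 1 of the 6 transcripts passed the test between salt-treated and control leaves. This was comp28131_c1_seq5, called higher under salt, where 17.3% of all tested transcripts were called higher. It had 7937, 10584 and 7766 RPKM in STR_06h, against 7135, 4125 and 4014 RPKM in CTR_06h, with no overlap between the groups. The log2 fold change was 0.82 (SE 0.26, limma adjusted p = 0.0242), and across 11 alternatives its adjusted p ran from 0.0167 to 0.195. The call was lost with either primer alone (HPLC 0.49, adjusted p = 0.180, non-HPLC 0.79, adjusted p = 0.0928), with the rest of the table set to the same sum (0.33, adjusted p = 0.195), in a fit of STR_06h and CTR_06h alone (adjusted p = 0.101) and without replicates that have 1 library (0.70, adjusted p = 0.112). It was also lost without replicate 2 or 3 of CTR_06h or replicate 2 of STR_06h, with an adjusted p of 0.0975, 0.0926 and 0.0882 by limma.

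The other 5 transcripts did not pass the test at 6 h. The isoform seq9 had 9175, 11891 and 21597 RPKM in STR_06h, against 13034, 8217 and 6707 RPKM in CTR_06h. Its groups overlapped, and replicate 3 of STR_06h stood far above the others. The log2 fold change was 0.57 (95% confidence interval -0.07 to 1.21, limma adjusted p = 0.146). The isoform seq1 had 694, 992 and 1301 RPKM in STR_06h, against 907, 597 and 497 RPKM in CTR_06h (log2 fold change 0.58, interval -0.04 to 1.19, limma adjusted p = 0.128). Both were called higher without replicate 1 of CTR_06h, at 0.84 for seq9 (adjusted p = 0.0422) and 0.82 for seq1 (adjusted p = 0.0454). For seq2 the interval was -0.53 to 0.71, for seq3 -0.49 to 0.63 and for comp25306_c0_seq3 -0.23 to 0.83 on the log2 scale.

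The intervals of seq2, seq3 and comp25306_c0_seq3 all held 0. The summed component had 22186, 29829 and 36782 RPKM in STR_06h, against 28652, 17435 and 15361 RPKM in CTR_06h, a log2 fold change of 0.56 (SE 0.27, limma adjusted p = 0.118). Without replicate 1 of CTR_06h, the highest control at that hour, the sum was called higher at 0.82. With the rest of the table set to the same sum, which moved the median of all tested transcripts by -0.32, the value for the sum was 0.06, and with HPLC libraries alone it was 0.02. At this hour the epidermis and cuticle list summed to 661 to 781 RPKM in STR_06h and to 279 to 511 RPKM in CTR_06h, and the dividing cell list to 25.8 to 29.2 RPKM in STR_06h and to 49.5 to 67.9 RPKM in CTR_06h, with 6 of its 11 transcripts called lower, where 17.2% of all tested transcripts were. The 6 called lower were transcripts of cyclin A2 and of DNA replication licensing factors, with isoforms of the same component among them. The part of either cell type in the values was not tested.

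The salt effect itself differed between the hours. The change of the salt effect, that at 24 h minus that at 6 h, was called below 0 for all 6 transcripts, where 15.2% of all tested transcripts were. It was -2.96 for seq9 (SE 0.43, limma adjusted p = 0.000308), -2.51 for seq1 (SE 0.41, limma adjusted p = 0.000662), -2.12 for seq2 (SE 0.41, limma adjusted p = 0.00202) and -2.03 for comp25306_c0_seq3 (SE 0.35, limma adjusted p = 0.000999). It was -1.72 for seq5 (SE 0.37, limma adjusted p = 0.00337) and -1.41 for seq3 (SE 0.37, limma adjusted p = 0.0121). The sum of comp28131_c1 had -2.12 (SE 0.39, limma adjusted p = 0.00121), where 17.6% of all tested components were called below 0. The call for seq3 was lost with HPLC libraries alone (-0.53, adjusted p = 0.373), with non-HPLC libraries alone (-1.19, adjusted p = 0.0705), with the rest of the table at the same sum (-0.63, adjusted p = 0.117) and without replicates that have 1 library (-1.07, adjusted p = 0.0761). That of seq2 was lost with HPLC libraries alone (-1.41, adjusted p = 0.0554).

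Set against each other, salt-treated leaves at 24 h were lower than those at 6 h in all 6 transcripts, where 32.1% of all tested transcripts were called lower. The contrast was widest for seq9, at -3.18 (limma adjusted p = 4.55e-07), and seq1, at -2.97 (limma adjusted p = 5.86e-07). For seq2 and seq3 it was -0.91 and -0.74, and with HPLC libraries alone these became 0.10 and 0.08, neither of them called. With the rest of the table set to the same sum they were -0.48 (limma adjusted p = 0.0890) and -0.31 (limma adjusted p = 0.233). The call of seq3 was also lost with equal medians (-0.63, limma adjusted p = 0.0557) and with replicates that have both libraries (-0.54, limma adjusted p = 0.122). By leaving out a replicate, seq2 lost its call without replicate 3 of STR_06h (-0.70, adjusted p = 0.0725) or of STR_24h (-0.79, adjusted p = 0.0563), and seq3 without replicate 2 of STR_06h (-0.59, adjusted p = 0.0962) or of STR_24h (-0.54, adjusted p = 0.120). This comparison and the salt comparisons share their salt-treated leaves.

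The make-up of comp28131_c1 also differed between salt-treated and control leaves at 24 h. The isoform seq9 made up 17.4, 17.0 and 16.3% of the sum in the 3 replicates of STR_24h, against 28.5 to 31.4% in CTR_24h. The isoform seq5 made up 41.6, 45.6 and 49.5% in STR_24h, against 26.1, 28.1 and 32.4% in CTR_24h. Neither pair of groups overlapped, and within each primer the libraries did not overlap either: seq5 stood at 42.3 to 49.6% in STR_24h and 25.7 to 32.3% in CTR_24h with the HPLC primer, and at 41.1 to 49.5% in STR_24h and 26.4 to 32.5% in CTR_24h with the non-HPLC primer. For seq9 the ranges were 17.0 to 19.6% in STR_24h and 30.4 to 32.6% in CTR_24h with the HPLC primer, and 14.9 to 15.8% in STR_24h and 27.3 to 30.6% in CTR_24h with the non-HPLC primer.

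In the fit of each isoform against the sum of the others, seq9 was called lower, at -1.07 on the log2 scale (SE 0.26, limma adjusted p = 0.0254), and seq5 higher, at 1.05 (SE 0.28, limma adjusted p = 0.0412). Of all 1877 isoforms tested in this way, 3.46% were called lower and 2.34% higher. Both calls sat near the threshold, and both were lost without any 1 of the STR_24h replicates (adjusted p of 0.0640 to 0.0814 for seq9 and 0.0640 to 0.133 for seq5) and without replicate 1 or 2 of CTR_24h (0.0738 and 0.0914 for seq9, 0.138 and 0.112 for seq5). That of seq5 was also lost without replicate 2 of CTR_00h or any 1 replicate of CTR_06h, at 0.0519 to 0.0546, and with a block for the replicate number (1.05, limma adjusted p = 0.0580). Over the 11 other alternatives the adjusted p ran from 0.0151 to 0.110 for seq9 and from 0.0350 to 0.194 for seq5, while the log2 values stayed between -1.16 and -1.05 and between 1.01 and 1.09. The share of seq2 was 17.7, 19.3 and 12.8% in STR_24h, against 25.7, 22.3 and 20.1% in CTR_24h, and did not pass the test (-0.58, limma adjusted p = 0.0950). For seq1 and seq3 the replicates of the groups overlapped in share. The shares of a component sum to a fixed total, so a higher share of seq5 and a lower share of seq9 are not separate observations.

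**Figure D3:**
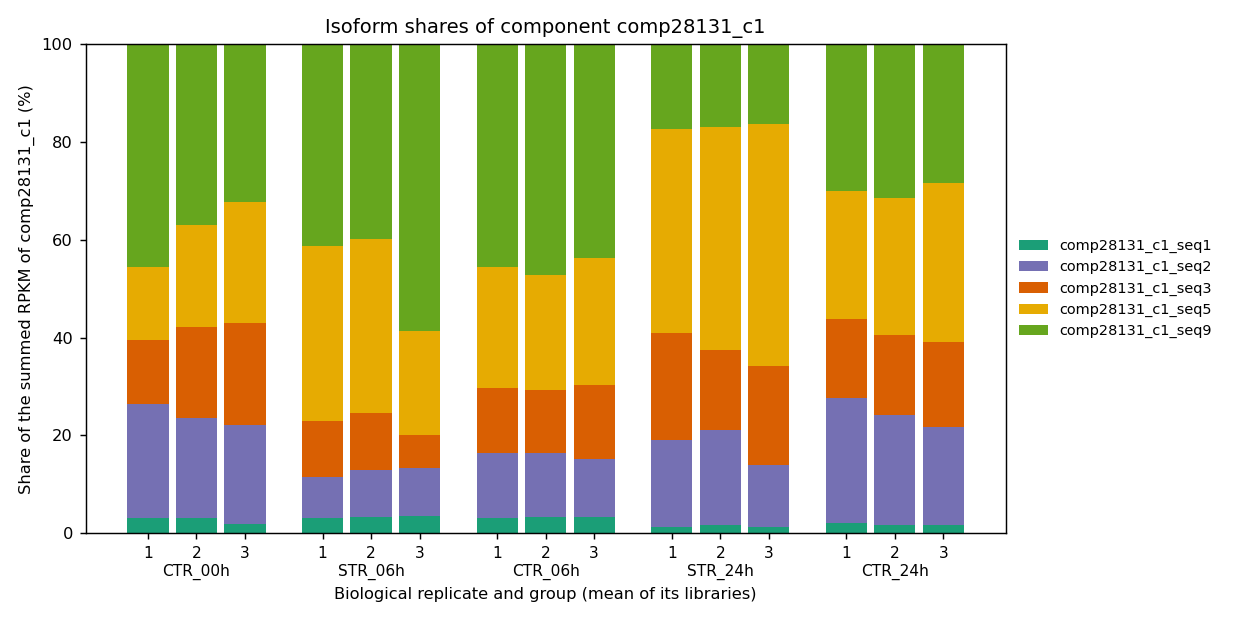
Share (%) of each of the 5 isoforms in the summed RPKM of comp28131_c1, 1 bar for each biological replicate, by group. In STR_24h seq5 holds 41.6 to 49.5% and seq9 16.3 to 17.4%, against 26.1 to 32.4% and 28.5 to 31.4% in CTR_24h.

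At 6 h limma called 0 of the 5 isoforms in share between salt-treated and control leaves, and 3.3% of the isoforms tested were called. The share of all isoforms at an unadjusted p under 0.05 is not given here. At that looser rule there were 2 of the 5, seq3 (-0.54, limma adjusted p = 0.309) and seq2 (-0.53, limma adjusted p = 0.200). Their replicates did not overlap: seq2 made up 8.30, 9.71 and 9.71% in STR_06h, against 12.0 to 13.3% in CTR_06h, and seq3 made up 11.4, 11.6 and 6.92% in STR_06h, against 13.1, 12.8 and 14.97% in CTR_06h. Replicate 3 of STR_06h was unlike the others of its group, with 58.7% of the sum in seq9, against 41.4 and 39.9% in replicates 1 and 2, and 21.1% in seq5, against 35.8 and 35.5%.

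Control leaves differed between sampling times as well. Those at 0 h and 24 h were taken at the same hour of the day, 1 day apart, and those at 6 h at another hour. At 24 h against 0 h, 4 of the 6 transcripts were higher, where 16.2% of all tested transcripts were called higher. The widest difference was that of seq5, with 7692, 6570.3 and 7968 RPKM in CTR_24h, against 2233, 3250.0 and 3649 RPKM in CTR_00h, a log2 fold change of 1.31 (SE 0.26, limma adjusted p = 0.00155). The transcript comp25306_c0_seq3 had 4822, 3961 and 3470 RPKM in CTR_24h, against 2589, 1854 and 1928 RPKM in CTR_00h, a log2 fold change of 0.95 (limma adjusted p = 0.00838). In both the groups did not overlap. The log2 fold change of seq2 was 0.85 (limma adjusted p = 0.0309) and that of seq3 was 0.71 (limma adjusted p = 0.0434). Of these, seq5 alone was still called with the rest of the table set to the same sum, a scaling that moved the median of all tested transcripts by -0.38. The call of seq3 was kept in 4 of 12 alternatives, and it was lost with a block for the replicate number over all samples (limma adjusted p = 0.0639) or within each treatment (0.0741), with 0.1 as the pseudocount (0.0512), with CTR_24h and CTR_00h fitted alone (0.0670) and with HPLC (0.79, 0.0562) or non-HPLC libraries alone (0.69, 0.0606). That of seq2 was lost with HPLC (0.90, limma adjusted p = 0.0676) or non-HPLC libraries alone (0.81, 0.0536). The call of seq2 was also lost without any 1 replicate of CTR_00h (adjusted p of 0.0534 to 0.0720) or replicate 1 of CTR_24h (0.116), and that of seq3 without replicate 1 or 2 of CTR_00h, any 1 of CTR_24h, or replicate 3 of STR_06h or STR_24h (0.0519 to 0.179). The summed component was higher at 0.77 (limma adjusted p = 0.0354), where 18.6% of all tested components were called higher, and this was lost without any 1 of the 6 replicates compared (0.0596 to 0.0972) and with a block for the replicate number over all samples (limma adjusted p = 0.0596).

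At 6 h against 0 h, seq5 (0.72, limma adjusted p = 0.0268) and seq1 (0.71, limma adjusted p = 0.0453) were called higher in control leaves, and 29% of all tested transcripts were. Of 12 alternatives, 2 kept the call for seq1 and 10 that for seq5. With a block for the replicate number over all samples, that of seq1 was lost (limma adjusted p = 0.0536), while with a block within each treatment it was kept (0.0193) and seq9 was called too (0.65, limma adjusted p = 0.0368). Without replicate 1 of CTR_06h both were lost (adjusted p = 0.197 for seq1 and 0.125 for seq5). The call for seq5 was lost without replicate 1 of CTR_00h (0.51, adjusted p = 0.125) and that for seq1 without replicate 3 of CTR_00h (0.46, adjusted p = 0.199). The call for seq1 was lost too without replicate 2 of CTR_06h, CTR_24h or STR_06h or any 1 replicate of STR_24h (0.0512 to 0.0654). At 24 h against 6 h, seq2 (1.21, limma adjusted p = 0.00217) and seq3 (0.67, limma adjusted p = 0.0383) were called higher, and 27.4% of all tested transcripts were. That of seq3 was lost without replicate 2 or 3 of CTR_06h or replicate 1 or 3 of CTR_24h (0.0756 to 0.139). It was also lost with the block over all samples (limma adjusted p = 0.0567) or within each treatment (0.0660), where comp25306_c0_seq3 was called (0.53, limma adjusted p = 0.0300), and it was kept in 4 of 12 alternatives. The isoform seq2 stood at 3460.1, 3189.6 and 2998 RPKM in CTR_00h, 3811, 2264 and 1844 RPKM in CTR_06h, and 7578, 5227 and 4935 RPKM in CTR_24h. Its 3 values at 24 h lay above all those at the earlier hours.

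The share of seq2 in its component was lower at 6 h than at either other hour of control leaves. It was 12.0 to 13.3% in CTR_06h, against 23.3, 20.4 and 20.3% in CTR_00h, a log2 ratio to the other isoforms of -0.89 (SE 0.19, limma adjusted p = 0.00568), where 6.93% of the isoforms tested were called lower. At 24 h it was 25.7, 22.3 and 20.1%, with a log2 ratio of 1.00 against 6 h (SE 0.19, limma adjusted p = 0.00213), and at that step 10.6% of the isoforms tested were called higher. The share of seq9 was lower at 24 h than at 6 h in control leaves (-0.96, limma adjusted p = 0.0187), as was that of seq1 (-0.87, limma adjusted p = 0.0107), and 7.78% of the isoforms tested were called lower. The call of seq9 was lost without replicate 2 of CTR_06h (adjusted p = 0.0615) or replicate 3 of CTR_24h (0.0568). Between 24 h and 0 h limma called 0 of the 5, against 4.58% of the isoforms tested. At an unadjusted p under 0.05 there were 2, and the share of all isoforms at that looser rule is not given here. In salt-treated leaves the share of seq9 was lower at 24 h than at 6 h, at -2.10 (SE 0.26, limma adjusted p = 7.05e-05), where 7.46% were called lower, and seq1 was lower too, at -1.26. The isoforms seq3 (1.16), seq5 (0.95) and seq2 (0.95) were higher in share, where 8.74% were. That of seq5 (limma adjusted p = 0.0331) was kept in 6 of 12 alternatives and lost with 0.1 as the pseudocount (0.108), HPLC (0.48, 0.444) or non-HPLC libraries alone (1.11, 0.0816), the 2 groups fitted alone (0.0853), replicates with both libraries (0.0990) and the study's cut-off. It was lost too without replicate 3 of STR_06h (0.60, adjusted p = 0.144) or replicate 2 or 3 of STR_24h (adjusted p = 0.0844 and 0.114). The difference between the salt and control courses of the share of seq9 was -1.14 (SE 0.37, limma adjusted p = 0.132) and did not pass the test, where 2.61% of the isoforms tested did. By limma 0 of the 5 isoforms passed. An unadjusted p under 0.05 was found for 2, again without the share of all isoforms at that rule.

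Values of these transcripts differed between libraries of the same cDNA that were indexed with different primers. In the 13 replicates with both libraries, the non-HPLC library gave the higher value of seq2, seq3, seq5, seq9 and comp25306_c0_seq3 in 13 of 13 replicates, and of seq1 in 3 of 13. The median ratio of non-HPLC to HPLC was 2.54 for seq3, 1.63 for seq5, 1.41 for seq9, 1.29 for seq2, 1.17 for comp25306_c0_seq3 and 0.88 for seq1, while the median over all tested transcripts was 1.05. On the log2 scale, the median of seq3 lay above that of 99.96% of all tested transcripts. In a fit of these ratios across all tested transcripts, chosen after the ratios were seen, all 6 differed from 0, 5 of them upward, where 4.4% of all tested transcripts were called higher with the non-HPLC primer and 1.25% lower. The mean log2 ratio was 1.45 for seq3 (SE 0.07, limma adjusted p = 5.26e-08) and -0.21 for seq1 (SE 0.05, limma adjusted p = 0.0407).

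The ratio depended on the group for 2 isoforms. In STR_06h, seq9 had 13716, 19271 and 34110.3 RPKM in the non-HPLC libraries and 4635, 4511 and 9084 RPKM in the HPLC libraries of the same 3 replicates. These are ratios of 2.96 to 4.27, against 1.59 and 3.03 in CTR_06h, 1.10 and 1.19 in STR_24h and 1.20 to 1.41 in CTR_24h. For seq2 the ratio was 2.85 to 3.59 in STR_06h, against 1.46 and 2.91 in CTR_06h. Across all tested transcripts the ratio differed between the 5 groups, by an F test in limma at an adjusted p of at most 0.05, for 2, which is 0.0429% of those tested, and these were seq9 (adjusted p = 0.0419) and seq2 (adjusted p = 0.0419). For seq3 (adjusted p = 0.536), seq5 (adjusted p = 0.466), seq1 (adjusted p = 0.778) and comp25306_c0_seq3 (adjusted p = 0.983) the ratio was not called between groups. The salt comparison at 6 h had, for seq9, a log2 fold change of -0.18 in HPLC libraries and 0.57 in the mean of both. Neither was called.

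**Figure D4:**
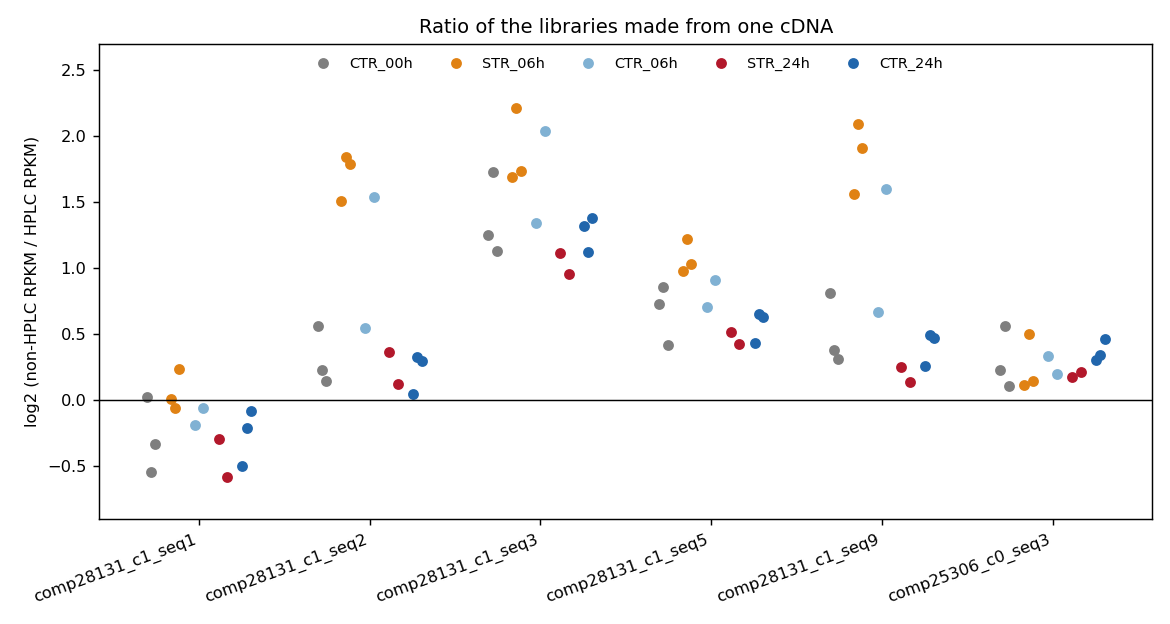
Log2 ratio of the non-HPLC to the HPLC library of the same cDNA for each of the 6 transcripts, 1 point for each of 13 replicates, coloured by group. For seq3 the points lie between 0.96 and 2.21 in all groups, and for seq2 and seq9 the 3 points of STR_06h lie between 1.51 and 2.09, above those of every other group except 1 point of CTR_06h in each.

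Likeness of log2 levels over the 15 replicates is given as a description, with no test. Among the isoforms of comp28131_c1, the closest pair was seq9 and seq1 (Pearson's r = 0.982, Spearman's rho = 0.918), although their mean levels were 7910.1 and 545 RPKM. Next came seq2 and seq3 (r = 0.831, rho = 0.832), while seq2 and seq5 were the least alike (r = 0.382, rho = 0.296). The sum of comp28131_c1 and comp25306_c0_seq3 were close (r = 0.944, rho = 0.900). The 15 replicates fall into 5 groups, all levels come from the same libraries, and isoforms can share reads.

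Of other components, the described transcript most like comp25306_c0_seq3 was comp13871_c0_seq2, an uncharacterized protein (r = 0.985, n = 15), with 32.9 ± 6.44 RPKM in STR_24h and 131 ± 29.3 RPKM in CTR_24h (SD, n = 3). The one most like the sum of comp28131_c1 was comp25698_c1_seq3, annotated as a cell wall protein exp1 precursor (r = 0.916), with 6.92 ± 2.47 RPKM in STR_24h and 95.4 ± 18.0 RPKM in CTR_24h. The list of 5 for each also held comp12720_c0_seq2, of the photosystem II reaction center family (r = 0.860 with the sum and 0.888 with comp25306_c0_seq3), and comp11219_c0_seq1, of the macrophage migration inhibitory factor family (r = 0.858 and 0.899). The list for the sum was completed by comp14278_c0_seq1, a nonspecific lipid-transfer protein (r = 0.888), and that for comp25306_c0_seq3 by comp15012_c0_seq1, an endo-beta-glucanase precursor (r = 0.889).

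Other transcripts of the light reactions were few among those with values. Apart from the 6, the list of antenna proteins had 0 members with values. Of 6 tested transcripts of photosystems and electron transport, 2 were lower and 2 higher under salt at 24 h, where 22.3% of all tested transcripts were called lower and 24.2% higher. The 2 called higher were isoforms of 1 component, comp13151_c0, annotated as ferredoxin-NADP reductase. For comp13151_c0_seq1 the annotation names a root type, so the list is not of leaf light reactions alone. At 6 h 1 was higher and 0 lower, where 17.3% of all tested transcripts were called higher and 17.2% lower. Ferredoxin I (comp12521_c2_seq1), which carries electrons from photosystem I, had 181 ± 20.7 RPKM in STR_24h and 666 ± 189 RPKM in CTR_24h (log2 fold change -1.84, limma adjusted p = 0.000290). The photosystem II transcript comp12720_c0_seq2 had 11.2 ± 1.95 RPKM in STR_24h and 52.9 ± 14.4 RPKM in CTR_24h (-2.12, limma adjusted p = 1.40e-05). The root-type ferredoxin-NADP reductase comp13151_c0_seq1 rose to 60.6 ± 22.8 RPKM in STR_24h, against 12.1 ± 1.96 RPKM in CTR_24h (2.18, limma adjusted p = 2.22e-05).

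Both transcripts on the list of chlorophyll synthesis and breakdown were lower under salt at 24 h. The protochlorophyllide transcript comp12352_c0_seq1, annotated to the late part of chlorophyll synthesis, had 250 ± 21.9 RPKM in STR_24h and 523 ± 105 RPKM in CTR_24h (-1.05, limma adjusted p = 0.00107), and the porphobilinogen transcript comp17083_c0_seq1, of an early step, had 43.5 ± 5.20 RPKM in STR_24h and 117 ± 32.8 RPKM in CTR_24h (-1.37, limma adjusted p = 0.000345). The porphobilinogen transcript was also lower at 6 h (-0.83, limma adjusted p = 0.0150). Of 4 transcripts of the Calvin cycle, 1 was lower at 24 h, a share near the 22.3% of all tested transcripts called lower. It was a glyceraldehyde-3-phosphate dehydrogenase (comp12361_c0_seq1), with 1099 ± 245 RPKM in STR_24h and 3111 ± 558 RPKM in CTR_24h (-1.51, limma adjusted p = 0.00132).

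Of 11 transcripts for light receptors and regulators of light-harvesting genes, from 6 components, 5 were called higher in STR_24h and 0 lower, where 24.2% of all tested transcripts were called higher. At 6 h 2 were higher and 0 lower, where 17.3% of all tested transcripts were called higher. A transcript of constans 1 (comp21386_c0_seq4), a zinc finger protein that responds to day length in Arabidopsis, had 24.7 ± 6.86 RPKM in STR_24h and 5.34 ± 2.40 RPKM in CTR_24h (2.07, limma adjusted p = 0.000585). The red light receptor phytochrome B (comp17278_c0_seq1) had 9.04 to 11.9 RPKM in STR_24h and 10.9 to 11.9 RPKM in CTR_24h (-0.16, limma adjusted p = 0.551). Relative to all tested transcripts, whose median log2 fold change was 0.01, the medians at 24 h were -0.25 for photosystems and electron transport, -0.18 for the Calvin cycle, -1.21 for chlorophyll synthesis and 0.68 for the regulators. The list for plastid import had 0 members with values.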

How the data were processed

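The authors trimmed the reads, assembled them with Trinity, estimated expression with RSEM and deposited RPKM for each library and transcript, with 2 decimals. These values are not counts, so count tests were not run, and whether a further scaling factor was applied is not given in the sources used here. Of 29 columns, 28 were used under the group their name carries. The 1 column left out is a second library of replicate 2 of STR_24h, for which the labels list 1. The labels instead list a second library of replicate 2 of CTR_06h, which the table does not hold, so labels and table differ here. The study names a non-HPLC library of CTR_06h as failed. Its methods call it replicate 3, and its library list places it between the other CTR_06h replicates. That list gives reads for both primers of every STR_24h replicate, as the table does. By the study's account the column left out is thus a valid library, and its omission follows the labels alone. The 3 samples labelled as salt-treated at 0 h have no values and are not analysed here.

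Libraries of a replicate were averaged, and log2(RPKM + 1) was fitted for the 4658 transcripts that reached an RPKM of 1 in 3 or more replicates, with limma 3.58.1 (R 4.3.3) over 5 groups, the prior variance following the mean level, and Benjamini-Hochberg adjustment over all tested transcripts. A fold change is on the log2(RPKM + 1) scale. The 3421 components tested by their summed RPKM, and the ratio of an isoform to the others of its component, were fitted in the same way. Calls are at an adjusted p of at most 0.05 unless the study's cut-off is named. All plants of a treatment were divided into its 3 groups and leaves taken at each hour, so a treatment's leaves at different hours came from the same plants. No source says that a replicate number marks the same plants at each hour. Contrasts between hours, and the change of the salt effect, were fitted as independent samples. Their p-values measure the spread between these samples and do not account for repeated sampling of the same plants. The transcript, component and isoform ratio fits were tried on simulated data with independent replicates, for the salt comparison at 24 h alone. The other contrasts, the blocks and the fit of primer ratios were not simulated.

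The 6 members, the 6 gene lists and the 3 lists for other cell types were chosen with earlier results of these data known. Lists were matched to the descriptions of the annotation that the authors deposited, which cover 1586 of the transcripts with values. Named besides the members are the 5 described transcripts most like each component, 1 per component, and up to 6 of the highest means per list, of which the text gives values for some, chosen after they were seen. Of 30 correlations between same-numbered replicates of different groups, 6 were over 0.1. Pairs across treatments share no plants, so this count does not settle whether the numbers mark the same plants. Within control leaves the mean correlation was 0.141 for 0 h and 6 h, 0.098 for 0 h and 24 h and 0.051 for 6 h and 24 h. Within salt-treated leaves it was 0.019. The alternatives were 0.1 as the pseudocount, all transcripts without the low-value filter, a block for the replicate number, equal medians, an equal sum of the table without the members' components, each primer alone, a fit of the compared groups alone, the study's cut-off, no trend, and leaving out each replicate, and, after seeing the data, only replicates with both libraries and, for contrasts between hours, a block for the replicate number within each treatment. Tables and figures were made with pandas 2.3.3, numpy 2.4.6 and matplotlib 3.10.9 in Python 3.11.15.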

Additional observations from a re-analysis of the deposited data

Results flagged for a closer look

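The salt effect differed between 6 h and 24 h for each of the 6 transcripts and for the summed component, tested as the difference itself by limma. The log2 effect at 24 h minus that at 6 h was -2.96 for comp28131_c1_seq9, -2.51 for seq1, -2.12 for seq2, -1.72 for seq5, -1.41 for seq3, -2.03 for comp25306_c0_seq3 and -2.12 for the sum of comp28131_c1 (limma adjusted p = 0.00121). Each rests on 3 replicates in each of 4 groups. The salt effects at the 2 hours have no samples in common, but their leaves came from the same plants of each treatment, which the fit did not account for.

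The ratio of the non-HPLC to the HPLC library differed between the 5 groups for comp28131_c1_seq9 (F = 19.9, limma adjusted p = 0.0419) and comp28131_c1_seq2 (F = 19.9, limma adjusted p = 0.0419). In both the ratio was highest in STR_06h, where the replicates had ratios of 2.85 to 3.59 for seq2 and 2.96 to 4.27 for seq9.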

How the results depend on the processing

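Under 11 alternatives and the omission of each replicate, all 6 transcripts stayed lower in STR_24h than in CTR_24h, and 6 were called in each except under the study's cut-off, which called 5. Over all results, 2530 values kept direction and call or moved little, 34 reversed, 78 moved, 156 lost a call and 19 gained one. At 6 h of salt the 1 call became 0 under equal table sum, either primer alone, the compared groups alone, the cut-off and replicates with both libraries, and 0 to 3 without a replicate. There equal table sum gave -0.41 for seq2, -0.42 for seq3 and -0.20 for comp25306_c0_seq3 and its component; HPLC libraries alone gave -0.59 for seq2, -0.43 for seq3, -0.18 for seq9 and -0.32 for the share ratio of seq9; seq3 was -0.015 with non-HPLC libraries alone and -0.062 with replicates that have both. Without a replicate, seq2 ran from -0.14 to 0.39, seq3 from -0.078 to 0.32, the component from 0.37 to 0.82, and the share ratios of seq1 from -0.023 to 0.068 and of seq9 from -0.28 to 0.27. The change of the salt effect had 3 calls under the cut-off, which the component (-2.12) missed, and its share ratio of seq2 ran from -0.20 to 0.15 without a replicate. For control leaves at 6 h against 0 h, the 2 calls became 1 with pseudocount 0.1, the replicate block, equal medians, equal table sum, HPLC libraries, no trend or replicates with both libraries, 0 with the compared groups alone or the cut-off, and 0 to 3 without a replicate; seq3 was -0.0068 with equal medians, -0.15 with equal table sum and -0.20 to 0.18 without a replicate. At 24 h against 6 h, the 2 calls became 1 with the replicate block, HPLC libraries, the compared groups alone or replicates with both libraries, 4 with equal medians, 0 with non-HPLC libraries or the cut-off, and 1 to 4 without a replicate; seq9 was 0.031 with equal medians, 0.022 with HPLC libraries and -0.43 to 0.050 without a replicate, and the component ran from 0.20 to 0.65. At 24 h against 0 h, the 4 calls became 1 with equal table sum, 2 with either primer, 3 with pseudocount 0.1, the compared groups alone or the replicate block, over all samples or within treatments, 0 with the cut-off and 2 to 4 without a replicate; equal table sum gave -0.30 for seq1 and -0.12 for seq9, and seq1 ran from -0.0098 to 0.40 without a replicate. The component was not called there with the replicate block (0.77, limma adjusted p = 0.0596), equal table sum (0.22), non-HPLC libraries (0.73) or the cut-off (0.77), and ran from 0.67 to 0.83 without a replicate. Salt at 24 h against 6 h had 3 calls under the cut-off, and HPLC libraries gave 0.10 for seq2 and 0.084 for seq3, and equal table sum -0.48 and -0.31, none of them called. Of share ratios, the 2 calls of salt at 24 h became 0 with pseudocount 0.1, either primer, the cut-off or replicates with both libraries, 1 with the replicate block and 0 to 2 without a replicate. The 1 call of control 6 h against 0 h became 0 with non-HPLC libraries or the cut-off; the 3 of control 24 h against 6 h became 1 with pseudocount 0.1 or either primer and 0 with the cut-off; the 5 of salt 24 h against 6 h became 4 with pseudocount 0.1, HPLC libraries, the compared groups alone or replicates with both libraries, 3 with non-HPLC libraries and 2 with the cut-off. Control 24 h against 0 h had 0 to 1 without a replicate, with seq3 from -0.31 to 0.10 and seq2 from -0.0088 to 0.22. Of the related lists at 6 h, 3 higher became 0 with the cut-off, and 1 lower became 3 with pseudocount 0.1 and 0 with the cut-off; at 24 h, 7 higher became 4 and 5 lower became 3 with the cut-off. Whether the replicate numbers pair the samples within a treatment was not settled by their correlations. The block within treatments, added after seeing the data, kept 6 calls for the change of the salt effect and 6 for salt at 24 h against 6 h, and gave 3 at 6 h and 2 at 24 h against 6 h in control leaves. Where fewer libraries or a stricter threshold entered, that is the alternative's construction; for the others the cause was not tested. Replicates left alone by an omission were assumed to vary like the other groups. The reads behind each value are not known, so no limit of depth can be given.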
